A study of Mus musculus with 6 samples.

Results

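Voltage-gated sodium channels open when the membrane depolarises and carry the inward sodium current that starts and propagates the action potential. Each channel has a large pore-forming alpha subunit, which on its own can sense voltage and conduct sodium, and smaller beta subunits, which adjust gating and surface density and act as cell adhesion molecules. In cortical neurons the channels gather at the axon initial segment, where spikes begin, and at nodes of Ranvier.

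The 7 genes described here are the alpha subunits Scn1a, Scn2a, Scn3a and Scn8a and the beta subunits Scn2b, Scn3b and Scn4b. Their members are all probes that carry one of these gene names on the array and are not control probes. That gave 24 of 56605 probes: 5 for Scn1a, 4 for Scn2a, 5 for Scn3a, 6 for Scn8a, 1 for Scn2b, 2 for Scn3b and 1 for Scn4b. The array's own annotation calls Scn2a by an older name, Scn2a1, and its probes were matched through their transcript accession. A probe is named below by the position of its first base in the transcript it was designed on. Probes of the same gene can be designed on different transcripts, so their positions are not always on the same scale. The genes lie on chromosomes 2 (Scn1a, Scn2a and Scn3a), 15 (Scn8a) and 9 (Scn2b, Scn3b and Scn4b), and positions are those of mouse build mm9.

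RNA was measured in dissociated cerebral cortex from C57/B6 mouse embryos of day 16, grown as primary cultures and collected on day 12 in vitro. The irradiated group comprised 3 cultures exposed to terahertz waves, whose frequencies lie between those of microwaves and of infrared light. Exposure was at 3.1 THz in daily sessions of 3 hours on days 5 to 9 in vitro. The control group comprised 3 cultures without irradiation; a sham exposure is not described in the labels. For each of the 6 samples, 0.2 µg RNA was labelled with Cy3 and read on a 1-colour Agilent oligonucleotide array. Within a group the samples are numbered 1 to 3, with no statement that they were separate dissections, so the p-values measure a spread that may be partly technical. Cells were not sorted, and in such RNA fewer cells of a type and less RNA per cell cannot be told apart.

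Between 72.9% and 74.7% of spots were well above background on the irradiated arrays, against 64.9% to 72.6% on the control arrays, and no spot was saturated. Control 1 stood apart: it lay at -147.8 on the first principal component, which held 55.2% of the variation, whereas the other 5 arrays lay between 11.5 and 62.0. All 12 neuronal markers in the list used here were measured, as were all 8 astrocyte, all 9 oligodendrocyte and all 9 microglial markers. Glial markers were thus detected in samples that are labelled as neuron culture. Levels below are log2 signals after subtraction of the 75th percentile of the same array. Differences are irradiated minus control on the log2 scale. Because probes differ in how brightly they bind, levels are compared between arrays for the same probe and not between probes. An exception is a set of repeat-bearing probes, whose brightness is given beside that of other sets.

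Sequences of 3 of the probes are shown. Of these, only the repeat in the Scn8a probe is taken up again in the results below. The first is a Scn1a probe (chr2:66111022-66111081, minus strand) that shares no run of 16 or more bases with a probe of another gene. In the limma F test of the sample number, described below, it had an unadjusted p of 0.0112 and an adjusted p of 0.219.
Scn1a 6044: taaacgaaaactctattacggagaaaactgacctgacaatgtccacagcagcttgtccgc
For 2 further probes, 30 of the 60 bases are shown, with a TG repeat of 16 bases in capitals in Scn8a (bases 11 to 40 of the probe at chr15:100875702-100875761, plus strand) and the letters AATAAA in capitals in Scn3a (bases 28 to 57 of the probe at chr2:65296320-65296379, minus strand).
Scn8a 10672: acatgtaTGTGTGTGTGTGTGTGaagaatg
Scn3a 8355: gaagtttgtcaaAATAAAgactagttaaaa
AATAAA is the common form of the polyadenylation signal. It was present in 10.4% of all kept probes on the probe strand and in 3.7% on the opposite strand. Those on the probe strand include 3 members, Scn2a 888, Scn3a 8355 and Scn3b 4180. The match is a description of the letters and not evidence of a site in use.

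Of the 24 probes, 21 passed the filter, which asked for a signal well above background on 3 or more of the 6 arrays, and were tested together with all 40552 probes that passed it. The other 3, Scn1a 187 and Scn8a 464 and 1540, were not well above background on any array and have only a bound. No sodium channel probe passed an adjusted p of 0.05 (0 of 21) in limma with Benjamini-Hochberg adjustment, and neither did any other probe (0%). The smallest adjusted p among the members was 0.519. At an unadjusted p under 0.05, 2 of the 21 members differed, 1 higher and 1 lower in irradiated cultures, against 9.03% of all kept probes (4.02% higher and 5.01% lower). With quantile normalization, and in the deposited log2 table, 2 members also did so, but 2 were higher and 0 lower, since Scn8a 6620 came under 0.05 and Scn8a 10672 did not. The 3 irradiated arrays lay above the 3 controls for 1 member, against 5.76% of all kept probes, and below them for 1 member, against 9.77%. Together these are 2 of 21, against 15.5%. Differences lay below 0 for 7 members and above 0 for 14, whereas 56% of all kept probes lay below 0 and 44% above. The split was 10 below and 11 above with normexp background correction, where 73.7% of all kept probes lay below 0. It was 13 below and 8 above without both arrays numbered 1, where 60.2% did. With the brightest probe per gene, 5 of the 7 genes lay below 0, as did 65.9% of all genes. The median difference was 0.08 over the members and -0.05 over all kept probes.

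**Figure D1:**
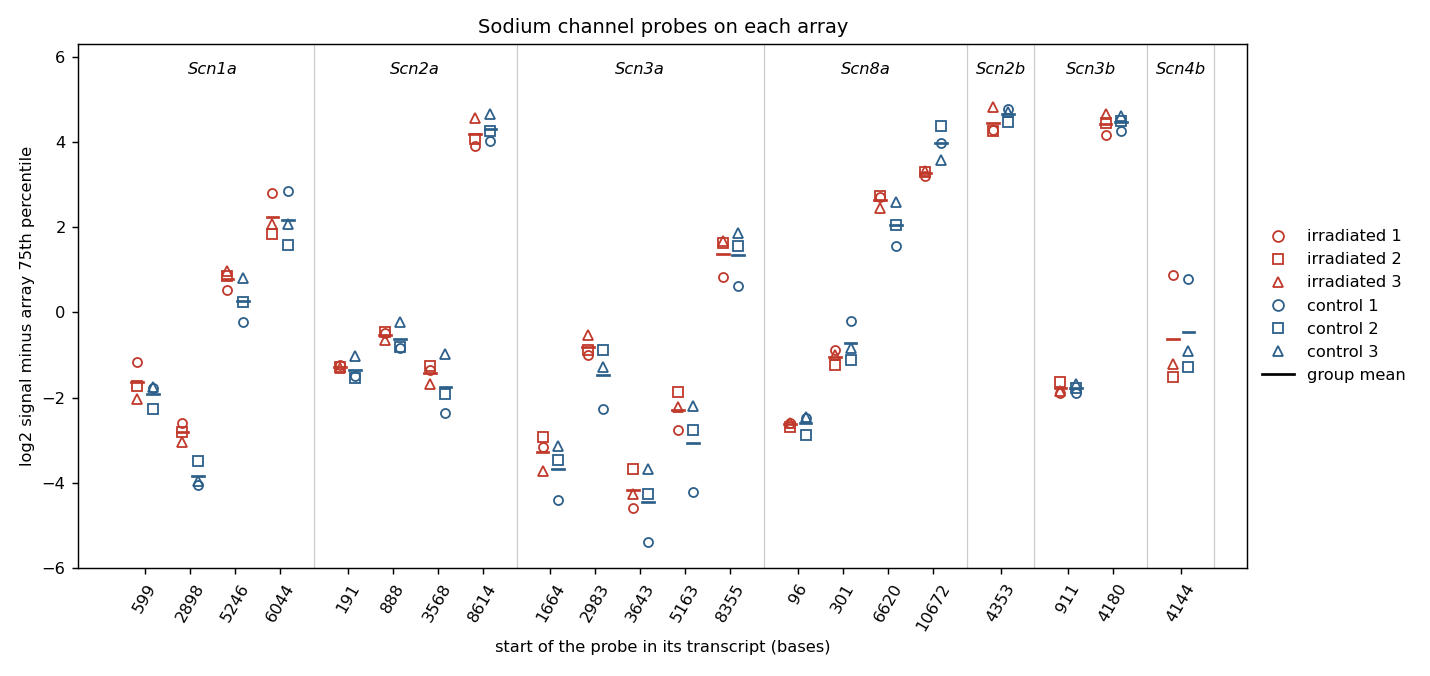
Each kept sodium channel probe is a position along the horizontal axis, labelled by its start in the transcript in bases, and the vertical axis is log2 signal minus the array's 75th percentile. Open symbols are single arrays, with irradiated cultures at the left (red) and controls at the right (blue) and a line at each group mean. The symbols of the groups are fully separate only for Scn1a 2898 and Scn8a 10672.

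Scn1a encodes an alpha subunit prominent in inhibitory interneurons. Its probe at 6044 read 2.80, 1.84 and 2.08 on irradiated arrays 1 to 3, against 2.86, 1.58 and 2.09 on control arrays 1 to 3. The groups overlapped, and the first sample of each was the highest. The difference was 0.06 with a standard error of 0.39 (95% interval -0.85 to 0.98). The probe at 5246 read 0.54, 0.85 and 0.97 in irradiated cultures, against -0.22, 0.24 and 0.82 in controls. These groups overlapped as well, with the lowest value in control 1, and the difference was 0.50 (interval -0.20 to 1.21), or 0.77 without control 3 (unadjusted p 0.0266). The probe at 5246 shares a run of 29 bases with the Scn3a probe at 5163. Their levels over the arrays had a Pearson r of 0.94. Whether either probe also binds RNA of the other gene was not tested. The probe at 599 differed by 0.28 (interval -0.40 to 0.96).

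One dim Scn1a probe had the smallest p of the members. The probe at 2898 (chr2:66186441-66186500, minus strand) is assigned to a separate Ensembl transcript model rather than to the transcript of the other kept Scn1a probes. It read -2.59, -2.80 and -3.05 in irradiated cultures, against -4.05, -3.48 and -3.96 in controls. All 3 irradiated values lay above all 3 control values. The difference was 1.02 with a standard error of 0.24 (interval 0.45 to 1.59), with an unadjusted p of 0.00372 and an adjusted p of 0.519 in limma. With normexp background correction it was 0.18, and the unadjusted p was 0.41. None of the other 3 kept Scn1a probes separated the groups.

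Scn2a encodes the alpha subunit that dominates axons of immature excitatory neurons. Its probe at 8614 read 3.90, 4.07 and 4.57 in irradiated cultures, against 4.01, 4.25 and 4.65 in controls. In both groups sample 1 was lowest and sample 3 highest, and the groups overlapped. The difference was -0.13 (interval -0.76 to 0.51), and its sign turned to 0.07 with quantile normalization. The other Scn2a probes, at 191, 888 and 3568, differed by 0.08, 0.09 and 0.32, with intervals that all included 0. The difference at 3568 was 0.02 without control 1 and 0.71 without control 3 (unadjusted p 0.0356). The probe at 3568 spans 1997 bases of the genome and so crosses an exon junction. Control 3 gave the highest level for each of these 3 probes.

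Scn3a encodes an alpha subunit that is abundant in the embryonic brain and declines after birth. Its probe at 8355, shown above, read 0.82, 1.64 and 1.68 in irradiated cultures, against 0.61, 1.57 and 1.87 in controls. The groups overlapped nearly completely, and sample 1 was the lowest of both. The difference was 0.03 (interval -0.88 to 0.95). The probe at 5163 read -2.77, -1.86 and -2.22 in irradiated cultures, against -4.20, -2.76 and -2.20 in controls. Control 1 was the lowest value here, and the difference of 0.78 had an interval of -0.42 to 1.98. With normexp background correction that difference was 0.14 (unadjusted p 0.554 in limma), and with normexp and quantile normalization 0.38. The probe at 5163 holds the run of 29 bases shared with the Scn1a probe at 5246, and binding of Scn1a RNA was not tested. The probes at 1664, 2983 and 3643 differed by 0.41, 0.67 and 0.26, and control 1 was the lowest array at 1664 and 2983. Those at 1664 and 2983 were each designed on a different transcript from the other Scn3a probes. The probe at 3643 was well above background on 5 arrays but not on control 1, where its value has only a bound. Without control 1, the difference at 1664 was 0.04, at 2983 it was 0.28, at 3643 it was -0.21, at 5163 it was 0.20 and at 8355 it was -0.34. The unadjusted p at 2983 was 0.0318 without control 2 (difference 0.97), and at 5163 it was 0.0498 without control 3 (difference 1.20).

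Scn8a encodes the alpha subunit of mature axon initial segments and nodes. Its 2 probes nearest the end of the transcript gave differences of opposite sign. The probe at 10672 read 3.21, 3.31 and 3.31 in irradiated cultures, against 3.97, 4.37 and 3.59 in controls. All 3 irradiated values lay below all 3 controls. The difference was -0.70 with a standard error of 0.25 (interval -1.28 to -0.12), at an unadjusted p of 0.0246 and an adjusted p of 0.519 in limma. Without control 2 it was -0.50, at an unadjusted p of 0.0924. Without irradiated 1, 2 or 3 the unadjusted p was 0.0681, 0.0636 or 0.0537, with differences of -0.66, -0.71 and -0.72. The probe at 6620 (chr15:100871650-100871709, plus strand), on the same transcript, read 2.72, 2.72 and 2.46 in irradiated cultures, against 1.55, 2.05 and 2.58 in controls. Irradiated 1 and 2 were above all controls here, while control 3 was above irradiated 3. The difference was 0.57 with a standard error of 0.29 (interval -0.11 to 1.25; unadjusted p 0.0896, adjusted p 0.521 in limma). Without control 1 it was 0.32, and without both arrays numbered 1 it was 0.28. Without control 3 it was 0.83 (unadjusted p 0.0172). Its unadjusted p was 0.0498 with quantile normalization (difference 0.69), 0.0401 with normexp correction (0.62) and 0.0323 with both (0.69). The probes at 96 and 301 differed by -0.02 and -0.32, with intervals that included 0. The probe at 96 spans 65587 bases of the genome and so crosses an exon junction. The sign of the Scn8a difference thus depended on the probe.

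**Figure D2:**
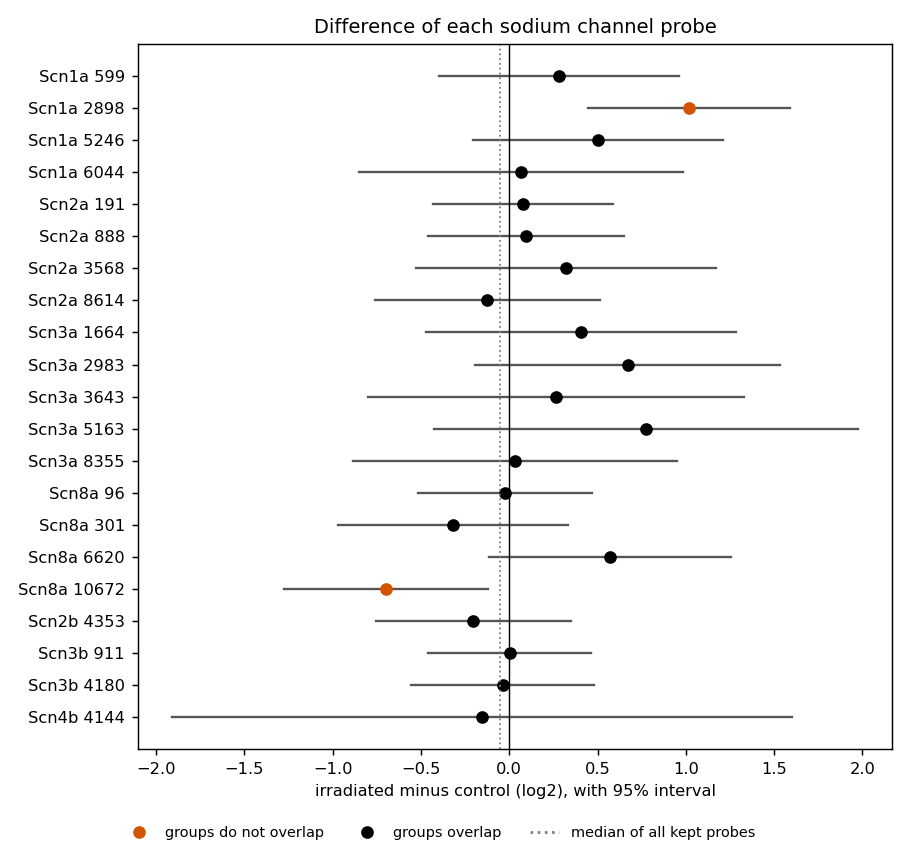
Rows are the kept sodium channel probes, named by gene and start in the transcript, and the horizontal axis is irradiated minus control in log2 units. Points are limma estimates, bars are 95% intervals, orange points are probes whose groups do not overlap, and the dotted line is the median of all kept probes at -0.05. Intervals exclude 0 only for Scn1a 2898 and Scn8a 10672, and the Scn4b interval, -1.91 to 1.60, is the widest.

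The Scn8a probe at 10672 holds the TG repeat shown above, and probes of other genes with that repeat were examined after its value had been seen. They are described without a test. The 12 letters TGTGTGTGTGTG were found in 104 kept probes of 104 genes (0.256% of all kept probes), of which the Scn8a probe is the one member. The difference was below 0 in all 104, against 56% of all kept probes, and in 99 of them all 3 irradiated arrays lay below all 3 controls, against 9.77%. Their differences ranged from -1.18 to -0.05, with a median of -0.73. The same letters on the opposite strand were held by 60 kept probes, of which 24 lay below 0 and 36 above, with a median of 0.03. These sets are not matched for brightness. The median level was 5.71 for the repeat probes, 1.67 for those on the opposite strand and -1.60 for all kept probes. Over the brightest probe of each gene, 65.9% of differences lay below 0. For 54 genes with both a repeat probe and another kept probe, the median difference was -0.73 for the repeat probes and 0.12 for the others. For 19 of these 54 genes the other probes averaged below 0.

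Over the 6 arrays, the level of Scn8a 10672 followed the median of the 103 repeat probes of other genes with a Pearson r of 0.97. For Scn8a 6620 that r was -0.88, and the median r of all kept probes with Scn8a 10672 was 0.10. These arrays share their normalization, and the values are descriptions over 6 points. The level at 10672 minus the level at 6620 was 0.50, 0.59 and 0.85 on the irradiated arrays, against 2.42, 2.32 and 1.003 on the control arrays. Control 3 lay close to irradiated 3, while controls 1 and 2 were well above all others. The part of the repeat in the Scn8a difference was not tested. With quantile normalization the Scn8a 10672 difference was -0.52 (unadjusted p 0.0691) and the median of the repeat probes was -0.38.

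**Figure D3:**
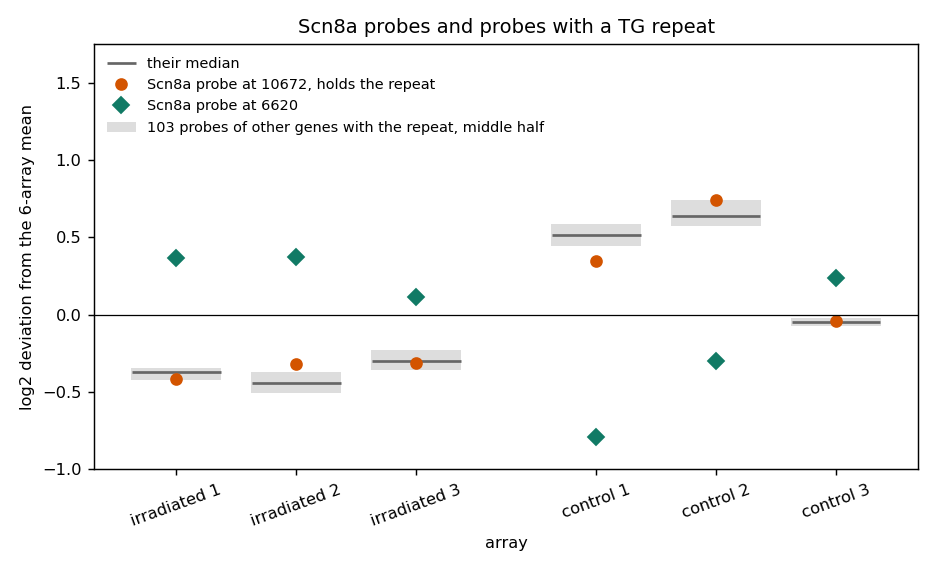
The horizontal axis lists the irradiated arrays and then the control arrays, and the vertical axis is each probe's log2 deviation from its own mean over the 6 arrays. Grey boxes run from the lower to the upper quartile of the 103 repeat probes of other genes with the median as a line, orange circles are Scn8a 10672 and green diamonds are Scn8a 6620. The orange circles follow the boxes (r 0.97), low on the irradiated arrays and high on controls 1 and 2, while the green diamonds run the other way (r -0.88).

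Among the beta subunits, Scn2b encodes a subunit that is linked covalently to the alpha subunit. Its probe at 4353 (chr9:44937945-44938004, plus strand) read 4.29, 4.26 and 4.81 in irradiated cultures, against 4.79, 4.47 and 4.71 in controls. The groups overlapped, since irradiated 3 was the highest array. The difference was -0.20 (interval -0.76 to 0.35), and 0.02 with quantile normalization.

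Scn3b encodes a non-covalently bound beta subunit with high expression in the developing brain. Its probe at 4180 (chr9:40099143-40099202, plus strand) read 4.18, 4.44 and 4.65 in irradiated cultures, against 4.27, 4.50 and 4.60 in controls. The groups lay on top of each other. The difference was -0.04 (interval -0.56 to 0.48), and 0.18 with quantile normalization. The probe at 911 differed by 0.00 with an interval of -0.46 to 0.47, so both Scn3b intervals exclude a difference of 1 log2 unit in either direction.

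Scn4b encodes a covalently linked beta subunit whose cytoplasmic tail takes part in resurgent sodium current. Its probe at 4144 (chr9:44962045-44962104, plus strand) read 0.87, -1.52 and -1.22 in irradiated cultures, against 0.80, -1.29 and -0.91 in controls. Sample 1 of each group was high and the other samples were low, so the spread within each group was far larger than the gap between groups. The difference was -0.16 with a standard error of 0.75 (interval -1.91 to 1.60), and with the sample number as a replicate block the interval was -0.65 to 0.34.

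The sample number was then tested directly, with an F test of the number in a limma fit that also held the group. No member passed an adjusted p of 0.05 in this test (0 of 21), against 0.00247% of all kept probes, and 4 of 21 had an unadjusted p under 0.05, against 12.7%. Scn4b averaged 0.83 over the arrays numbered 1, -1.41 over those numbered 2 and -1.07 over those numbered 3, with an unadjusted p of 0.000404 and an adjusted p of 0.0798 in limma. The other 3 were Scn1a 6044 (unadjusted p 0.0112, adjusted p 0.219), Scn3a 8355 (0.0126 and 0.232) and Scn3a 5163 (0.0397 and 0.359). Scn1a 6044 was high and these Scn3a probes low on the arrays numbered 1. With the mean of probes per gene, the unadjusted p of the F test was 0.561 for Scn1a and 0.0577 for Scn3a. The Scn4b call passed the adjusted threshold with normexp correction (adjusted p 0.0242) and over probes well above background on all 6 arrays (0.0419), and did not with quantile normalization (0.0894).

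Mean levels of glial marker lists also differed between the sample numbers, and these means were not tested against the number. The single markers were part of the F test over all kept probes. In that limma test the unadjusted p ran from 2.85e-05 to 0.579 over the 9 microglial markers. It ran from 5.27e-07 to 0.444 over the 9 oligodendrocyte, 0.000201 to 0.0997 over the 8 astrocyte and 0.0335 to 0.968 over the 12 neuronal markers. The mean level of the 9 microglial markers was 0.96, -0.98 and -1.49 in irradiated cultures, against 0.68, -0.94 and -1.64 in controls. The mean of the 9 oligodendrocyte markers was 2.78, 0.81 and 1.56 in irradiated cultures, against 3.14, 0.84 and 1.66 in controls. Mobp, one of the 9, was well above background on 4 arrays. Without it, an alternative chosen after seeing the data, the other 8 averaged 2.89, 1.82 and 2.43 in irradiated cultures, against 3.30, 1.88 and 2.50 in controls. Both list means were highest in sample 1 of each group, as Scn4b was. This held for 8 of the 9 microglial, 6 of the 9 oligodendrocyte and 7 of the 8 astrocyte markers singly. It also held for 2 of the 3 kept endothelial and mural, 1 of the 4 fibroblast and 1 of the 12 neuronal markers. Of the neuronal markers, 4 were lowest in sample 1 of both groups. The share over all genes was not computed. The 8 astrocyte markers averaged 3.63, 2.76 and 2.39 in irradiated cultures, against 3.79, 2.83 and 2.54 in controls. The 12 neuronal markers averaged 4.37, 4.48 and 4.76 in irradiated cultures, against 4.67, 4.70 and 4.78 in controls. Their part in the Scn4b, Scn1a and Scn3a values was not tested.

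**Figure D4:**
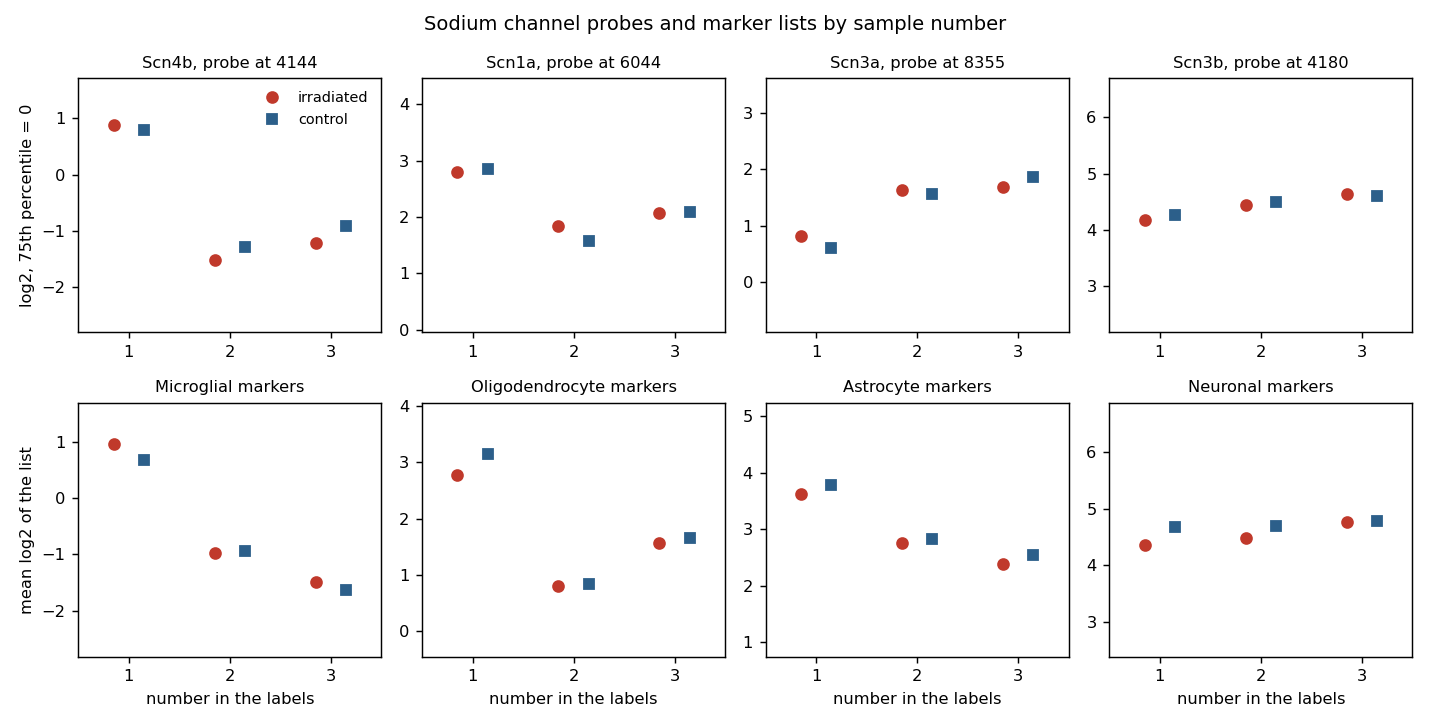
The upper panels show log2 levels of 4 sodium channel probes and the lower panels the mean log2 level of 4 marker lists, against the sample number in the labels; each panel spans the same number of log2 units. Red circles are irradiated and blue squares control cultures. Scn4b is high in sample 1 of each group (0.87 irradiated, 0.80 control) and low in the others, as is the microglial list, whereas Scn3b spans less than 0.5 log2 units.

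Probes of the same gene did not always vary together over the 6 arrays. Scn8a 6620 and Scn8a 10672, on the same transcript, had a Pearson r of -0.77, and the probe at 10672 holds the TG repeat. Scn8a 6620 and Scn8a 301, without the repeat, had an r of -0.73. Scn2a 888 had an r of 0.97 with Scn2a 191 and of 0.34 with Scn2a 8614. Between genes, Scn1a 6044 and Scn3a 8355 had an r of -0.86. Scn4b 4144 had an r of 0.95 with Scn1a 6044 and of -0.93 with Scn3a 8355, and Scn2a 8614 an r of 0.93 with Scn3b 4180. All are descriptions over 6 arrays that share the sample numbers.

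The named genes whose brightest probe varied most like that of each member were found among genes of similar spread over the 6 arrays. For Scn1a they were Mctp2 (r 0.998) and Baalc (0.995), and for Scn2a Sqle (0.999) and Zbtb14 (0.997). For Scn3a they were Tmem178b and Lmo7 (0.999 each). For Scn8a they were Srgap2 (0.998) and Zfp791 (0.996), and the probes of both hold the TG repeat. Among the 6 genes most like Scn8a, 5 had a repeat probe, against 0 of the 36 listed for the other members. For Scn2b they were Prkacb (0.996) and Zfp72 (0.994), for Scn3b Cmc4 (0.998) and Actr3b (0.994), and for Scn4b Grm3 and Gpr101 (0.997 each). These r are the highest among 2892 to 12429 genes compared with each member over only 6 arrays, and they were not tested. At a lower cut, an r of 0.95 was exceeded by 58 of 11790 genes for Scn2b and 519 of 9969 for Scn3a. For Scn4b it was exceeded by 203 of 2892.

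Other genes of the sodium channel system were read through 1 probe per gene, the brightest, over 26120 genes. In limma 0 of them (0%) reached an adjusted p under 0.05, and 9.17% had an unadjusted p under 0.05. Of 8 other sodium channel genes 6 were kept, and Scn7a and Scn9a were not. Among the 6, 0 were higher and 1 was lower at an unadjusted p under 0.05, and their median difference was -0.04, against -0.13 over all genes. The lower one was Scn4a, the skeletal muscle alpha subunit, at -2.70, -2.53 and -2.17 in irradiated cultures, against -1.26, -1.75 and -2.17 in controls. Irradiated 3 and control 3 read alike, and the difference was -0.74 (unadjusted p 0.0358, adjusted p 0.503 in limma). With the sample number as a replicate block the unadjusted p was 0.0663, and without control 1 the difference was -0.51 (unadjusted p 0.0869). Scn10a, an alpha subunit of sensory neurons, differed by -0.80 (interval -1.83 to 0.23) and was well above background on 3 arrays.

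The 22 partners and regulators, among them the scaffold Ank3, the fibroblast growth factor homologous genes Fgf11 to Fgf14 and the splicing factors Rbfox1 and Nova2, were all kept. None had an unadjusted p under 0.05 (0 of 22). Their differences lay above 0 in 3 and below 0 in 19, with a median of -0.22, against 65.9% below 0 and a median of -0.13 over all genes. With quantile normalization their median was -0.02. Among those named by the rule, Celf4, an RNA-binding protein, differed by -0.41 (interval -0.91 to 0.10), and Rbfox3, a neuronal splicing factor, by -0.30 (interval -0.76 to 0.16). With quantile normalization these were -0.16 and -0.04.

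Of the 5 endothelial and mural markers, Cldn5 and Cdh5 were not kept, and all 4 fibroblast markers were. Of the kept cell type markers, 0 passed an unadjusted p under 0.05 in the neuronal, astrocyte, oligodendrocyte, microglial, endothelial and mural, or fibroblast list. Their median differences were -0.19, -0.18, -0.05, 0.24, -0.29 and -0.44 in that order. With quantile normalization they were 0.08, -0.01, 0.08, 0.33, -0.37 and -0.36, so the neuronal and oligodendrocyte medians turned sign. The 2 genes of each list with the smallest p were Tubb3 (-0.67) and Rbfox3 (-0.30) for neurons, Sox9 (-0.40) and S100b (-0.24) for astrocytes, and Cspg4 (-0.52) and Mog (-0.39) for oligodendrocytes. They were Itgam (0.18) and Cd68 (-0.46) for microglia, Pecam1 (-0.29) and Rgs5 (0.65) for vessel cells, and Col1a2 (-0.51) and Col1a1 (-0.49) for fibroblasts. All of these intervals included 0.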

How the data were processed

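The authors deposited spot intensity values, which the submitters' processing notes credit to Agilent Feature Extraction, version 10.7.1.1. The processed signal is linear, background-subtracted and not normalised between arrays, per the file headers. The authors also deposited a log2 table, which from its values is quantile normalised, and it served as an alternative. Here, outlier-marked spots were left out, log2 signals were averaged per probe and each array's 75th percentile was subtracted. Of 56605 probes, 10 had no unmarked spot on an array. Probes well above background on at least 3 of 6 arrays were kept (40552). The percentile was a signal of 841, 892 and 635 on irradiated arrays 1 to 3, against 320, 465 and 707 on control arrays, and the number of arrays limits the precision.

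The comparison used lmFit and eBayes of limma 3.58.1 (R 4.3.3) on all 6 arrays, with Benjamini-Hochberg adjustment over all kept probes and calls at 0.05. A fit with group and sample number gave an F test of the number. The code was tested on simulated data. Gene names came from RefSeq tables (GRCm38.p6), and probe positions (mm9) from the file headers. Exon and untranslated region annotation of mm9 was not used here. The members and gene lists were chosen with earlier results of these data known. Named genes are all members, the 2 genes of smallest unadjusted p in each list, and the 2 genes most correlated with each member's brightest probe among genes with an SD of 0.5 to 2 times its own. A gene and some probe sequences that this would include are not reported here. Examples of partners and the genes with a TG repeat were chosen otherwise. Alternatives changed the normalization, background correction, filter, probe summary, replicate block and arrays used.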

Additional observations from a re-analysis of the deposited data

How the results depend on the processing

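No member was called for irradiated minus control under any alternative run. Among all probes, 4 were called with quantile normalization and 4 in the deposited log2 table, against 0. The number of members at an unadjusted p under 0.05 was 2; it was 1 with the brightest probe per gene, 0 with the mean of probes per gene, 1 without both arrays numbered 1, 1 without the TG repeat probes (which removes Scn8a 10672 itself), and 1 to 6 when single arrays were left out, with 6 without control 3 and 1 without irradiated 1. Of all 40552 probes, 3660 did, with 6370 without control 3 and 1242 without irradiated 1. The members' median difference was 0.08, -0.13 with the brightest probe per gene, -0.017 with the mean of probes, 0.008 with normexp correction, -0.008 without both arrays numbered 1, 0.18 with quantile normalization and 0.007 to 0.29 without single arrays, the highest without control 3. The median over all probes was -0.05, and -0.20 with normexp correction. Of the probes at an unadjusted p under 0.05, 55.5% were lower in irradiated cultures, 91.5% with normexp correction and 21.7% without control 2. For the sample number, 0 members were called, but 1 with normexp correction, 2 with normexp and quantile normalization (Scn4b and Scn1a 6044), and 1 each over probes above background on all arrays, with the brightest probe and with the mean of probes. Among all features 1 of 40552 was called, and 265 with normexp, 840 with normexp and quantile, 224 of 34520 above background on all arrays, 173 of 26120 with the brightest probe, 210 of 26120 with the mean, and 0 with quantile normalization, in the deposited table or without a filter.

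Some signs turned. With normexp correction, Scn3a 1664 was -0.12, Scn2a 191 -0.031, Scn3b 911 -0.14, Scn3a 3643 -0.40 and Scn3b 4180 0.008. With quantile normalization, with or without the replicate block, Scn2a 8614 was 0.068, Scn2b 0.015, Scn3b 911 -0.070 and Scn3b 4180 0.18. With normexp and quantile normalization these were 0.069, 0.025, -0.069 and 0.14. In the deposited table they were 0.068, 0.015, -0.069 and 0.18. Without both arrays numbered 1, Scn3a 1664 was -0.015, Scn2a 3568 -0.017, Scn2a 191 -0.016, Scn8a 96 0.028, Scn3a 8355 -0.058, Scn2a 888 -0.032, Scn3b 911 -0.006 and Scn3a 3643 -0.003. Leaving out single arrays gave ranges that crossed 0: Scn2a 191 (-0.011 to 0.24), Scn2a 8614 (-0.32 to 0.047), Scn2a 888 (-0.008 to 0.29), Scn8a 96 (-0.16 to 0.054), Scn3a 8355 (-0.34 to 0.31), Scn3a 3643 (-0.21 to 0.64), Scn4b (-0.90 to 0.48), Scn3b 911 (-0.075 to 0.056), Scn3b 4180 (-0.15 to 0.086), Scn1a 6044 (-0.23 to 0.41), S100b (-0.48 to 0.004), Cd68 (-1.12 to 0.28) and Rgs5 (-0.084 to 1.42). The causes were not tested.

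Over all kept probes, same-numbered arrays deviated together with correlations of 0.46, 0.33 and 0.09, and the third was under 0.1, so the main comparison kept no block. The check depends on the probes used: it was 0.53, 0.42 and 0.22 over 1 probe per gene, an alternative added after seeing the data, and 0.81, 0.70 and 0.14 over the members, so a pairing by number was not settled. Over all kept probes irradiated 2 and 3 correlated best with controls 3 and 2. With the replicate block, 0 members were called and 2 had an unadjusted p under 0.05, as without it, and 3483 against 3660 of all probes did. The block took Scn4a to an unadjusted p of 0.0663. All arrays lay on 1 slide and in 1 scan, so a slide block was not run. Irradiated 2 and 3 lay in row 2 of the slide and the other arrays in row 1, and position was not tested. For dim probes, such as Scn1a 2898, the signal over background limits the precision.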
